A study of Mus musculus with 6 samples.

Results

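Respiratory chain assembly factors are proteins that build the complexes of the mitochondrial inner membrane and are absent from the finished complexes. They insert haem, copper, flavin and iron-sulfur groups, hold newly made subunits, and join partly built modules. Loss of single assembly factors is a known cause of inherited mitochondrial disease, often with cardiomyopathy. The 46 mouse genes described here were taken by name from the count table of 54532 genes. The rule uses no measured value, but the list was drawn up with earlier results of these data known. By the complex they serve, 14 belong to complex I (NADH dehydrogenase), 4 to complex II (succinate dehydrogenase), 6 to complex III (cytochrome bc1), 19 to complex IV (cytochrome c oxidase) and 3 to complex V (ATP synthase).

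RNA was sequenced from the left ventricle of 3 TG and 3 NTG male mice, 4 weeks after aortic banding (AB), an operation that narrows the aorta and loads the heart with pressure. All 6 mice had AB, and no sham-operated heart was analysed here. TG mice have the genotype HINT2CTG-Myh6Cre, in which a CAG promoter drives HINT2 once tamoxifen-activated Cre, made under the cardiomyocyte promoter Myh6, has removed a stop signal. NTG mice are labelled C57BL/6J, and whether they carried Cre or received tamoxifen is not given in the sources used here, so effects of Cre or tamoxifen cannot be told apart from those of HINT2. The samples are whole ventricle pieces, in which fewer cells of a type and less RNA per cell cannot be told apart.

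Libraries held 14863568 to 17581220 counts on genes. Levels are CPM, read counts divided by TMM-scaled library size, and fold changes are TG over NTG from edgeR's quasi-likelihood test over 14774 genes, adjusted by Benjamini-Hochberg. The study's thresholds were used for a call, namely adjusted p under 0.05 with the log2 fold change beyond 0.5 in either direction. Mouse Hint2 had 12 counts in NTG 1, 545 and 559 in NTG 2 and NTG 3, and 793 to 859 in TG. NTG 1 therefore stands apart from its group in the gene the study targets, and the values over the whole set, the complex medians and the called genes are also given without it. The atrial genes Myl7, Myl4 and Sln summed to 67.4 CPM in NTG 1, 29.2 in TG 2 and 167 in TG 3, against 2.18 to 4.54 in the other 3 hearts. Between 13.4% and 19.2% of NTG counts, and between 16.0% and 21.5% of TG counts, fell on genes encoded by mitochondrial DNA.

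Of the 46 genes, 44 had enough counts to be tested. In 40 of them (90.9%) the log2 fold change was above 0, against 48.7% of all genes tested. It was below 0 in Cox16, Cox19, Cox20 and Coa5. The median over the 44 was 0.26, against -0.01 over all genes tested. With library size scaling 35 were above 0 and 9 below, with Ndufaf7, Acad9, Sdhaf1, Sdhaf3 and Sco1 joining those below, and the medians were 0.18 and -0.09. None was called by edgeR, by which 0% of all genes were called higher, and the lowest adjusted p among the members was 0.196. At an unadjusted p under 0.05, 12 of 44 (27.3%) were higher in TG, where 8.83% of all genes were, and 0 were lower, where 9.76% of all genes were. Every TG heart lay above every NTG heart for 13 of 44 (29.5%) members, against 11.2% of all genes, and every TG heart lay below for 0, against 12.3%. By DESeq2, 3 members (6.82%) were called higher, against 1.54% of all genes. These were the complex IV factors Cox11 and Cox14 and the complex I factor Ndufaf8. On simulated counts both tools called more unchanged genes than an adjusted p of 0.05 allows, DESeq2 by more than edgeR. The adjusted p-values of both may therefore be too small here. These counts were drawn with the spread that edgeR estimated, so they are not a neutral comparison of the tools.

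**Figure D1:**
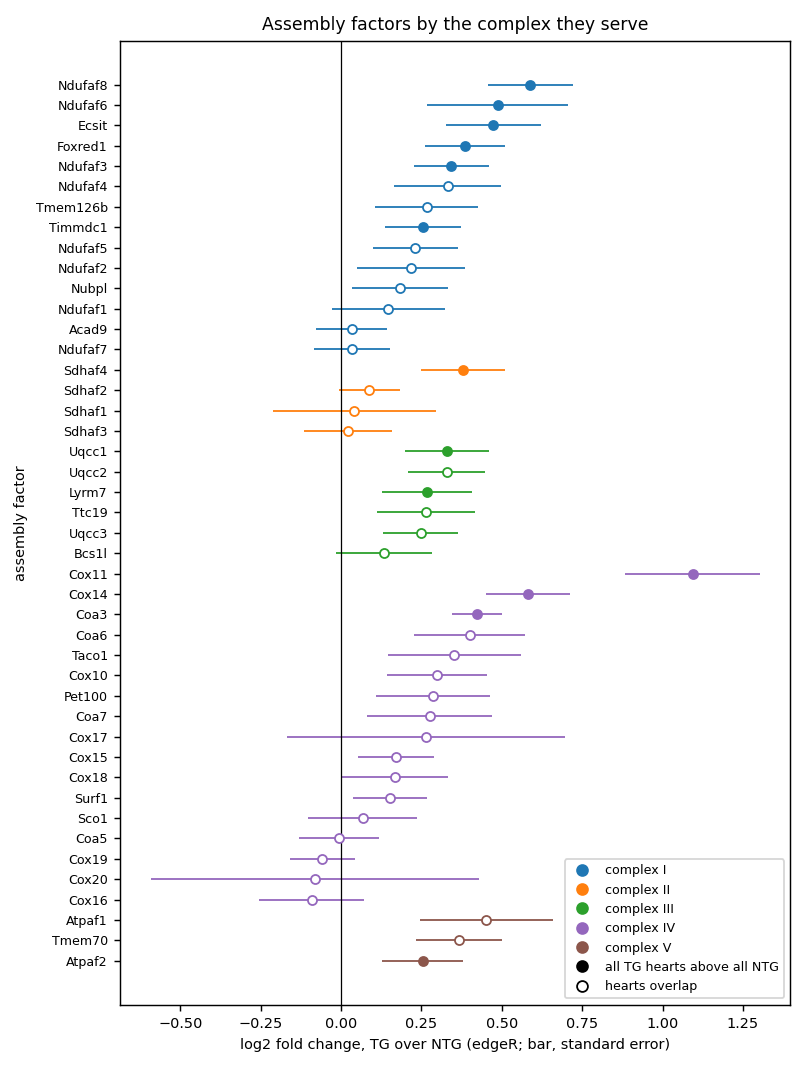
Log2 fold change of each of the 44 tested assembly factors (horizontal axis) with its standard error, coloured by complex and ordered within it. Filled points mark the 13 genes with every TG heart above every NTG heart. Of the 44 points, 40 lie above 0, and Cox11 at 1.09 lies farthest out.

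The stretches before the starts of the 3 genes called by DESeq2, and of Uqcc2, are shown to let their starting sequence be seen beside their values. They come from RefSeq promoter windows on GRCm38.p6, cut to the bases before the start that lie in no annotated exon, and are written 5′ to 3′ with capitals marking a searched word. Cox11 starts 89 bases from Stxbp4, a gene read the other way, and the 88 bases between them are chr11:90638085-90638172, strand +. Ndufaf8 likewise starts 197 bases from Tepsin, and its stretch is chr11:120098732-120098927, strand +. For Cox14 the stretch is chr15:99725368-99725617, strand +, and for Uqcc2 it is chr17:27133917-27134141, strand -.
Cox11: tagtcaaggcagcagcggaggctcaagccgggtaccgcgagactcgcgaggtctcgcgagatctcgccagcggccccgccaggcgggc
Ndufaf8: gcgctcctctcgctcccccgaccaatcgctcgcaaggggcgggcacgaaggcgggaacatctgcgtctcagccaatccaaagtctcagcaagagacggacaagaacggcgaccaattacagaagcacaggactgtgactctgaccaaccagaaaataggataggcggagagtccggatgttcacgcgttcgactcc
Cox14: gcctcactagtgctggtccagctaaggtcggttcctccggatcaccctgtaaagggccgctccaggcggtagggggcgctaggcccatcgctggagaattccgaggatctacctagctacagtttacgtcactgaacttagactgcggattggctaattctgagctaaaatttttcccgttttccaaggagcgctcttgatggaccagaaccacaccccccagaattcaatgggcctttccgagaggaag
Uqcc2: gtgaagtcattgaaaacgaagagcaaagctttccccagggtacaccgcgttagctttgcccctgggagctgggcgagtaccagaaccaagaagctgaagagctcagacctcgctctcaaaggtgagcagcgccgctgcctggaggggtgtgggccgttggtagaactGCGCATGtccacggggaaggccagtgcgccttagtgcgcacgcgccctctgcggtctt

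Windows of 250 bases before the start were found for 40 of the 46 genes. Their median GC content was 60.8%, against 52.4% over all 32851 windows and 55.6% over those of coding genes. The ETS core (CCGGAAG, read on both strands) was in 11 of 40 (27.5%) member windows, 6.91% of all windows and 8.98% of coding ones. The NRF1 word (GCGCATG) was in 3 of 40 (7.5%), against 3.24% and 3.96%. The ERR word (AAGGTCA) was in 1 of 40 (2.5%), against 4.08% and 3.59%, and the YY1 core (AAGATGG) was in 1 of 40 (2.5%), against 4.49% and 4.13%. These words are known as parts of binding sites of factors that control nuclear genes for mitochondrial proteins, and a match is a match of letters only. Stretches with the ETS core or its reverse complement in capitals are shown, 5′ to 3′, for 5 factors of complexes I, III and IV picked as examples, followed by those with the NRF1 word for the 2 complex III factors that hold it.
Ndufaf1: gggaccacaaCCGGAAGcgtggcgaac
Bcs1l: gtgggtgtggCCGGAAGtagatgcagc
Cox10: gcgctgggagCCGGAAGtgacaagagg
Sco1: cctccttcggCTTCCGGcagaagcgga
Cox20: ccagggcgggCTTCCGGacagccccag
Ttc19: atgcgtcatcGCGCATGcggactggcg
Uqcc2: tggtagaactGCGCATGtccacgggga

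The ETS core began 18 bases before the start of Ndufaf1, 47 before Bcs1l, 27 before Cox10, 45 before Sco1 and 103 before Cox20, and the NRF1 word began 31 bases before Ttc19 and 83 before Uqcc2. The 11 tested members with the ETS core had a median log2 fold change of 0.13, and 1 of them (9.09%), Ndufaf8, was higher at an unadjusted p under 0.05, close to the 8.83% of all genes. In the 27 tested members with a window but no ETS core the median was 0.27, and 9 (33.3%) were higher. The difference was not tested. The windows end at the RefSeq start, which for some genes lies inside the gene as the count table places it. All 7 bases of the ETS core of Cox16 and of Sdhaf2, and 5 of the 7 in Ndufaf8, lie inside the gene by that placing, so the stretch printed for Ndufaf8 does not hold the whole word. Cox11 and Cox14 held none of the 4 words in their windows. A coding neighbour starting within 1000 bases on the other strand was present for 11 of 46 members (23.9%), against 6.77% of coding genes.

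Complex I factors serve the arm that takes electrons from NADH and the arm that pumps protons. All 14 had log2 fold changes above 0, with a median of 0.26 (0.39 without NTG 1 and 0.17 without NTG 2), and 4 were higher at an unadjusted p under 0.05. Ndufaf8 partners Ndufaf5, which hydroxylates a core subunit, and lies at chr11:120098928-120100705. Its level was 26.8, 19.1 and 23.2 CPM in NTG 1, 2 and 3 and 34.5, 34.5 and 34.8 CPM in TG 1, 2 and 3. All TG hearts lay above all NTG hearts and within a narrow band, while the NTG hearts spread. The log2 fold change was 0.59 (SE 0.13, edgeR adjusted p = 0.196), and DESeq2 gave an adjusted p of 0.0174. DESeq2 lost this call without any 1 of NTG 2, NTG 3, TG 1, TG 2 or TG 3, where the adjusted p was 0.0594 to 0.180. Without NTG 1 the edgeR adjusted p was 0.0249.

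Ecsit, a scaffold of the intermediate that builds the membrane arm, was at 52.6, 39.0 and 49.1 CPM in NTG and 73.0, 54.3 and 68.1 CPM in TG. All TG hearts were higher, with TG 2 just above NTG 1, and the log2 fold change was 0.47 (SE 0.15, edgeR adjusted p = 0.204). Foxred1, a flavin enzyme of late assembly, was at 53.6, 41.1 and 49.1 CPM in NTG and 68.9, 56.6 and 62.3 CPM in TG. Its groups did not overlap either, and its log2 fold change was 0.39 (SE 0.12, edgeR adjusted p = 0.207). Ndufaf3, which with Ndufaf4 builds the early quinone-binding module, was at 23.2, 19.1 and 20.7 CPM in NTG and 27.6, 24.3 and 28.0 CPM in TG. It did not overlap, with a log2 fold change of 0.34 (SE 0.12, edgeR adjusted p = 0.214).

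Ndufaf7, a methyltransferase of early assembly, had the lowest log2 fold change of the complex I factors, 0.03 (SE 0.12). It was at 20.8, 19.5 and 23.7 CPM in NTG and 21.8, 20.4 and 23.2 CPM in TG, and the hearts of both groups lay interleaved. The other 9 had log2 fold changes from 0.03 for Acad9, a membrane arm factor, to 0.49 for Ndufaf6, an early factor. Without NTG 2 these were -0.03 and 0.26. Ndufaf6 was at 7.54 CPM in NTG 2 and at 12.6 to 17.0 CPM in the other 5 hearts, with an unadjusted p of 0.0583 in edgeR's quasi-likelihood test. Timmdc1, a further membrane arm factor, also had all TG hearts above all NTG hearts.

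**Figure D2:**
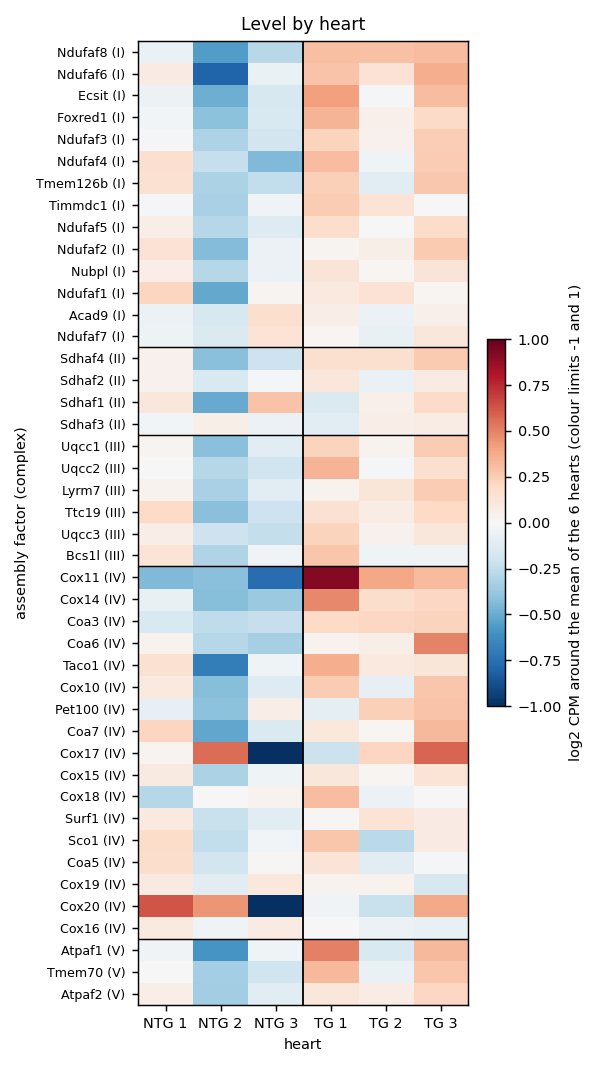
Level of the 44 tested assembly factors (vertical axis, grouped by complex) in each heart (horizontal axis), as log2 CPM around each gene's mean over the 6 hearts, with colour limits at -1 and 1. NTG 2 is the lowest of the 6 hearts for 33 genes, and NTG 1 is the highest NTG heart for 35.

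Complex II, which oxidises succinate, is served by 4 factors, and their median log2 fold change was 0.06. This median was 0.11 without NTG 1, 0.10 without TG 1, 0.15 without NTG 3 and 0.03 without TG 3, and it fell below 0, to -0.02, with library size scaling. Sdhaf4, which binds the flavin-carrying subunit Sdha, was at 26.1, 19.0 and 21.9 CPM in NTG and 28.4, 28.3 and 30.4 CPM in TG. All TG hearts lay above all NTG hearts, and the log2 fold change was 0.38 (SE 0.13, edgeR adjusted p = 0.215). Without NTG 1 it was 0.504 at an edgeR adjusted p of 0.0493, both only just past the limits for a call. Sdhaf2, which helps attach flavin to Sdha, was at 58.8, 51.4 and 56.5 CPM in NTG and 61.8, 54.6 and 60.7 CPM in TG. Its groups overlapped at a log2 fold change of 0.09 (SE 0.09), which was 0.03 without NTG 2, 0.05 without TG 1, 0.14 without TG 2 and 0.003 with library size scaling. Sdhaf3, a chaperone of the iron-sulfur subunit Sdhb, was at 9.01, 9.56 and 8.85 CPM in NTG and 8.51, 9.61 and 9.69 CPM in TG, with a log2 fold change of 0.02 (SE 0.14). Sdhaf1, another Sdhb chaperone, was at 2.97 to 5.15 CPM in NTG and 3.82 to 4.82 CPM in TG, and 69.6% of its exon bases overlap a gene on the opposite strand.

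Complex III passes electrons to cytochrome c, and its 6 factors had log2 fold changes of 0.13 to 0.33 with a median of 0.27 (0.38 without NTG 1). Uqcc2, which acts with Uqcc1 in making cytochrome b, was at 67.4, 55.6 and 58.9 CPM in NTG and 85.8, 67.0 and 75.6 CPM in TG. TG 2 lay just below NTG 1, so the groups overlapped, and the log2 fold change was 0.33 (SE 0.12, edgeR adjusted p = 0.221). With the offset for gene length it was 0.21, at an unadjusted p of 0.113 in edgeR's test. Uqcc1 was at 120, 88.3 and 109 CPM in NTG and 138, 121 and 140 CPM in TG. Its groups did not overlap, with TG 2 close to NTG 1, and the log2 fold change was 0.33 (SE 0.13, edgeR adjusted p = 0.236) and 0.21 without NTG 2. Bcs1l, which moves the Rieske iron-sulfur protein across the membrane, was at 24.8, 18.4 and 22.1 CPM in NTG and 27.5, 22.0 and 22.2 CPM in TG. It had the lowest log2 fold change of the complex, 0.13 (SE 0.15), and its groups overlapped. It was 0.02 without NTG 2 or TG 1, 0.24 without NTG 1 and 0.05 with library size scaling. Lyrm7, which holds the Rieske protein before insertion, had all TG hearts above all NTG hearts at a log2 fold change of 0.27. Ttc19, which clears fragments of that protein, and Uqcc3, which acts after cytochrome b is made, overlapped between groups at 0.26 and 0.25, and Uqcc3 was at 0.13 with the length offset.

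Complex IV reduces oxygen, and 13 of its 17 tested factors (76.5%) had log2 fold changes above 0, against 48.7% of all genes. The median of this complex was 0.26 (0.29 without NTG 1 and 0.14 without NTG 2). Its factors spread most, from -0.09 for Cox16 to 1.09 for Cox11. Cox11, which delivers copper to the catalytic subunit Cox1 and lies at chr11:90638173-90644931, was at 6.01, 6.11 and 4.80 CPM in NTG and 15.4, 10.6 and 10.1 CPM in TG. All TG hearts were well above all NTG hearts, with TG 1 highest. Its log2 fold change was 1.09 (SE 0.21, edgeR adjusted p = 0.196), and the DESeq2 adjusted p was 0.00177. With DESeq2 it stayed called without any 1 heart other than NTG 3, without which the adjusted p was 0.0545. Without NTG 1 the edgeR adjusted p was 0.0391. Its counts were low, 83 to 214 per heart, and 48.3% of its exon bases overlap Tom1l1 on the opposite strand. Tom1l1 had a log2 fold change of 0.36 and Stxbp4 one of -0.39, neither with an unadjusted p under 0.05 in edgeR's test. The labels and methods do not state that strand was used in counting, and the part of the overlap in the result was not tested.

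Cox14 and Coa3 both hold newly made Cox1 during translation. Cox14 (chr15:99725618-99728136) was at 95.2, 74.6 and 77.8 CPM in NTG and 140, 114 and 116 CPM in TG, with no exon overlap with another gene. TG hearts lay above NTG hearts throughout, and the log2 fold change was 0.58 (SE 0.13, edgeR adjusted p = 0.196, DESeq2 adjusted p = 0.0118). DESeq2 lost the call without NTG 2, NTG 3, TG 1 or TG 3, at adjusted p of 0.0947 to 0.182, and the edgeR adjusted p was 0.0264 without NTG 1. Coa3 (chr11:101277968-101279114) was at 55.0, 51.2 and 52.2 CPM in NTG and 70.1, 70.7 and 71.4 CPM in TG, and both groups were tight and well apart. Its log2 fold change of 0.42 (SE 0.08) is under the 0.5 limit, with an adjusted p of 0.196 by edgeR and 0.00548 by DESeq2. The DESeq2 value was 0.0644 without NTG 2, 0.0999 without NTG 3, 0.0926 without TG 1 and 0.119 without TG 3, and the edgeR value was 0.0334 without NTG 1.

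Coa6, which helps load copper into Cox2, was at 13.9, 11.2 and 10.8 CPM in NTG and 13.9, 14.2 and 19.2 CPM in TG. TG 1 stood level with NTG 1 and TG 3 stood above the rest, and the log2 fold change was 0.40 (SE 0.17, edgeR adjusted p = 0.268) and 0.23 without TG 3. Cox16, which takes part in Cox2 maturation, was at 6.28, 5.68 and 6.19 CPM in NTG and 5.84, 5.63 and 5.56 CPM in TG, with a log2 fold change of -0.09 (SE 0.16). The haem a factors Cox10 and Cox15 had log2 fold changes of 0.30 and 0.17, and the copper factor Sco1 had 0.07. Taco1, which activates Cox1 translation, had 0.35, and Surf1, a Cox1 maturation factor, had 0.15. The intermembrane space proteins Coa5 and Cox19 had -0.01 and -0.06, and Coa5 was at 171 to 219 CPM in NTG and 179 to 212 in TG. Cox18, which inserts Cox2 into the membrane, had 0.17, and the factors Coa7 and Pet100 had 0.28 and 0.29. None of these 10 had an unadjusted p under 0.05 in edgeR's test, and their groups overlapped. With 1 heart left out in edgeR all but Coa5, Cox19 and Sco1 stayed above 0, with values of 0.17 to 0.43 for Cox10, 0.06 to 0.26 for Cox15, 0.14 to 0.53 for Taco1, 0.08 to 0.24 for Surf1, 0.05 to 0.24 for Cox18, 0.11 to 0.47 for Coa7 and 0.16 to 0.39 for Pet100. Sco1 ranged from -0.06 to 0.20.

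**Figure D3:**
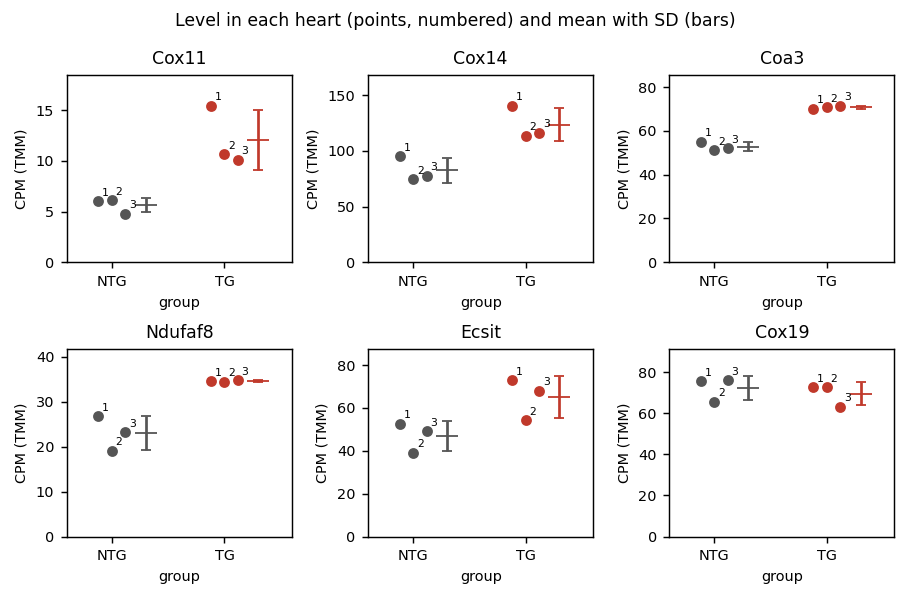
CPM in each heart (points, numbered by replicate) with the mean and SD (n = 3) for 5 factors with an unadjusted p under 0.05 and for Cox19. Axes start at 0. TG and NTG points are apart for Cox11, Cox14, Coa3, Ndufaf8 and Ecsit and overlap for Cox19.

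The copper chaperone Cox17 and the Cox2 chaperone Cox20 had 18 to 65 and 5 to 17 counts per heart, with log2 fold changes of 0.26 (SE 0.43) and -0.08 (SE 0.51), and Sco2 and Pet117 had 0 in all 6. All coding bases of Cox17 are shared with Gm21987 on the same strand, and 91.1% of the exon bases of Cox20 overlap Hnrnpu. All exon bases of Pet117 lie within Kat14, read on the same strand, and 91.8% of those of Sco2 overlap Ncaph2 or Tymp. Kat14 was at 19.6 to 24.4 CPM and Ncaph2 at 57.6 to 69.3 CPM over the 6 hearts, and no level is given for Sco2 or Pet117. In the 25 members with no exon overlap the median log2 fold change was 0.25, against 0.26 in the 19 tested members with one.

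Complex V makes ATP, and its 3 factors had a median log2 fold change of 0.37 (0.46 without NTG 1). Tmem70, which builds the ring of c subunits, was at 70.7, 56.1 and 62.0 CPM in NTG and 89.1, 67.9 and 86.3 CPM in TG. TG 2 lay below NTG 1, and the log2 fold change was 0.37 (SE 0.13, edgeR adjusted p = 0.221). Atpaf1, a chaperone of the beta subunit, was at 38.6, 26.2 and 38.4 CPM in NTG and 56.1, 35.6 and 49.4 CPM in TG. Its hearts overlapped through TG 2, with a log2 fold change of 0.45 (SE 0.21, edgeR adjusted p = 0.291) and 0.29 without NTG 2. Atpaf2, which does the same for the alpha subunit, was at 26.6, 20.0 and 23.7 CPM in NTG and 27.6, 26.8 and 29.3 CPM in TG. Its TG hearts lay above its NTG hearts by a small gap, at a log2 fold change of 0.25 (SE 0.13, edgeR adjusted p = 0.314) and 0.15 without NTG 2.

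Per kilobase of exon, Cox14 was the most abundant factor, at 114 CPM per kb in NTG and 171 in TG, followed by Uqcc2 at 72.5 and 91.0 and Coa3 at 59.6 and 79.8. The 8 tested members under 1000 exon bases had a median log2 fold change of 0.39, and 6 of them (75%) were higher at an unadjusted p under 0.05, against 17.1% of all genes that short. In the other 36 the median was 0.25, and 6 (16.7%) were higher, against 8.28%. Over all genes tested the medians were 0.15 (916 genes) and -0.01 (13858 genes) on the same split. Spearman's rho between exon length and log2 fold change was -0.42 over the 44 members, which share the same 6 libraries. With an offset for gene length in the edgeR fit, the median over the 44 members was 0.25 and 9 (20.5%) were higher at an unadjusted p under 0.05, against 9.20% of all genes. Under this offset 3 of the 8 short members (37.5%) were higher, against 10.04% of all short genes, with Sdhaf4, Uqcc2 and Coa6 no longer among them, and 6 of the other 36 (16.7%) were, against 9.14%. The log2 fold changes of Ndufaf8 and Cox14 were each 0.47 with the offset, under the 0.5 limit, while that of Cox11 was 1.04.

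**Figure D4:**
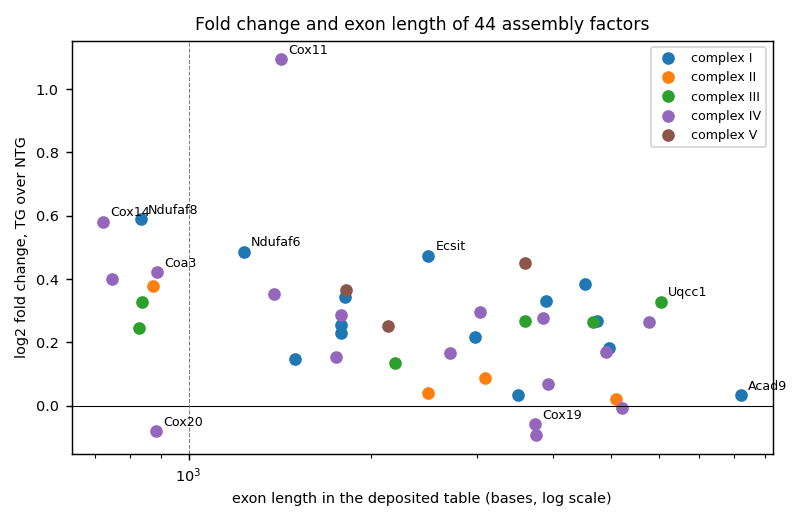
Log2 fold change (vertical axis) against exon length in bases (horizontal, log scale) for 44 assembly factors, coloured by complex, with a dashed line at 1000 bases. Ndufaf8, Cox14 and Coa3 lie left of the line, and Cox11 and Ecsit lie right of it.

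The hearts of one group differed among themselves across the whole set. NTG 1 was the highest NTG heart for 35 of 44 members and lay above the lowest TG heart for 29. NTG 2 was the lowest NTG heart for 36, and TG 2 was the lowest TG heart for 30. The mean of the 44 genes, as log2 CPM around each gene's own mean, was 0.04, -0.30 and -0.15 in NTG 1, 2 and 3 and 0.18, 0.04 and 0.19 in TG 1, 2 and 3. NTG 1 thus lay at the level of TG 2. With each heart left out in turn in edgeR, 32 of the 44 log2 fold changes moved by over 1.5 times, among them 10 that changed sign. The other 12, which moved by less in these fits, were Ndufaf3, Ndufaf8, Ecsit, Foxred1, Sdhaf4, Uqcc2, Uqcc3, Cox11, Cox14, Cox16, Coa3 and Tmem70. Without NTG 1, 42 members were above 0 and 2 below, and every TG heart lay above both other NTG hearts for 28 members (63.6%), against 23.4% of all genes. The median log2 fold change was then 0.35, and edgeR called 4 members higher (Ndufaf8, Sdhaf4, Cox11 and Cox14), where 2.67% of 15136 genes were called higher. Without NTG 2 the median was 0.16. At an unadjusted p under 0.05, 24 members (54.5%) were higher without NTG 1, against 13.7% of all genes in the same edgeR fit, and 15 (34.1%) without TG 2, against 9.08%. The number was 6 (13.6%) without NTG 2, NTG 3 or TG 1, against 5.08%, 5.15% and 4.98% of all genes, and 7 (15.9%) without TG 3, against 5.35%.

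Subunits of the finished complexes that the nuclear genome encodes had fold changes in the same direction. Of 79 tested, 78 (98.7%) had log2 fold changes above 0, against 48.7% of all genes, with a median of 0.42. At an unadjusted p under 0.05 in edgeR's test, 47 (59.5%) were higher, against 8.83% of all genes. Summed CPM of the assembly factors was 4.93%, 5.44% and 5.26% of that of the subunits in NTG 1, 2 and 3 and 4.53%, 4.90% and 4.35% in TG 1, 2 and 3. All TG hearts were below all NTG hearts in this share, by a small gap between TG 2 and NTG 1, and it was not tested. Among 21 further assembly factors tested, 20 were above 0, with a median of 0.27, and 7 were higher at an unadjusted p under 0.05. Of 7 genes of the disulfide relay, the import route of small cysteine-rich proteins, 6 were above 0 at a median of 0.32, and 0 passed. Of 15 iron-sulfur supply genes, 14 were above 0 at a median of 0.30, and 6 passed. The shares over all genes to set beside these lists are the same 48.7% above 0 and 8.83% higher at this p.

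Marker genes of cell types also differed between the groups. All 10 cardiomyocyte markers had log2 fold changes above 0, with a median of 0.41, and their summed level was 25245 to 40650 CPM in NTG and 39660 to 48246 in TG. All 7 fibroblast markers were below 0, with a median of -1.12 and sums of 4701 to 10840 CPM in NTG and 2308 to 4007 in TG. All 6 macrophage markers were below 0, with a median of -0.60 and sums of 469 to 909 CPM in NTG and 369 to 520 in TG. All 5 erythroid genes were also below 0, with a median of -1.05. The 6 endothelial markers had a median of 0.13 and went both ways, from -0.19 to 0.37, with 4 above 0. The 5 smooth muscle and pericyte markers had a median of 0.04 and went from -0.61 to 0.70, with 3 above 0. No cardiomyocyte, fibroblast or macrophage marker was at 0 in any heart. The part of these cell types in the fold changes of the assembly factors was not tested.

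**Figure D5:**
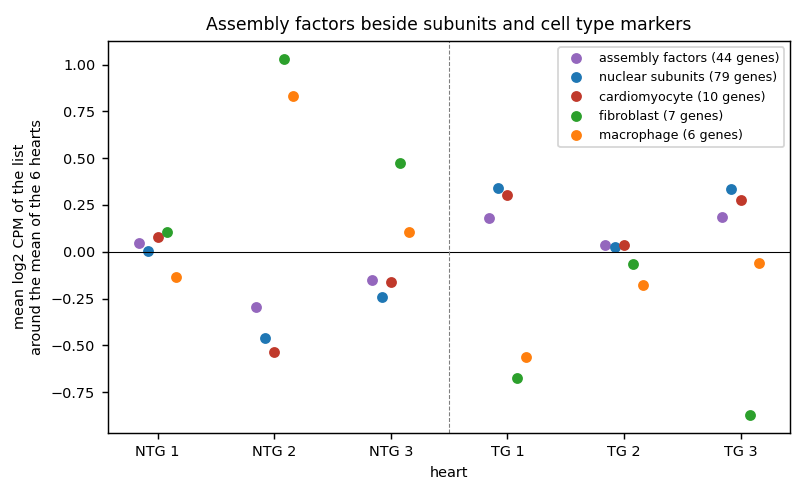
Mean log2 CPM of each gene list around its mean over the 6 hearts (vertical axis) for each heart (horizontal axis). Assembly factors, subunits and cardiomyocyte markers are lowest in NTG 2, where fibroblast and macrophage markers are highest, and NTG 1 and TG 2 lie close together for the first 3 lists.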

How the data were processed

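RNA was sequenced from 6 left ventricles, 3 per group, with 1 library each. The authors cleaned the reads, mapped them (HISAT2 and the build GRCh38 are listed in the submitters' processing notes), counted them per gene with featureCounts, compared groups with DESeq2, and deposited raw counts that were neither normalized nor pooled. Gene positions in the table are those of mouse GRCm38, and 98.3% of 54495 genes were identical to GENCODE release M21. The labels and methods do not give a strand setting. All 6 columns were matched to samples by title, and 0 were left unmatched.

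In R 4.3.3, edgeR 4.0.16 was run with TMM scaling, filterByExpr and the quasi-likelihood test with no covariate, adjusted over 14774 genes. Alternatives were DESeq2 1.42.0, limma 3.58.1 (voom), RLE or library size scaling, other count filters, a length offset, a replicate block and leaving out each library. Scripts were tested on simulated counts, on which both tools called more unchanged genes than an adjusted p of 0.05 allows, DESeq2 by more than edgeR. No pair of libraries agreed within sampling noise. The p-values measure the spread between these 6 hearts. A permutation of 3 against 3 cannot give a two-sided p below 0.1, so its values for the 44 tested members are not reported. The members and lists were chosen with earlier results of these data known. Values of every heart are given for the members of each complex with an unadjusted p under 0.05 (at least the 2 lowest), for the lowest fold change of each complex, and for the 2 members not tested.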

Additional observations from a re-analysis of the deposited data

How the results depend on the processing

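The median log2 fold change of the 44 tested assembly factors stayed above 0 under all 20 alternatives, from 0.16 without NTG 2 to 0.36 without NTG 1, both among the fits with 1 library left out, and was 0.18 with library size scaling. No member was called lower in any of them. The number of members called higher was 0 with edgeR, 3 with DESeq2, 3 with no low-count filter (both times Ndufaf8, Cox11 and Cox14) and 2 with the replicate block (Cox11 and Cox14), where 0%, 1.54%, 0.432% and 0.569% of all genes were called higher. It was 0 to 6 with 1 library left out (edgeR or DESeq2, the latter added after seeing the data), the 6 being with DESeq2 without NTG 1, where 5.92% of all genes were. At an unadjusted p under 0.05, 12 members were higher, and 4 to 24 with 1 library left out with edgeR or DESeq2. With DESeq2 this number was 22 without NTG 1 (50%, against 13.4% of all genes), 5 without NTG 2 (11.4%, 4.88%), 7 without NTG 3 (15.9%, 5.46%), 4 without TG 1 (9.09%, 4.71%), 14 without TG 2 (31.8%, 8.74%) and 6 without TG 3 (13.6%, 5.06%). The complex IV median was 0.14 without NTG 2, and the complex II median was -0.02 with library size scaling. Of the values of single named genes, 339 kept their direction and their side of an adjusted p of 0.05, 31 reached an adjusted p under 0.05 in the same direction (23 of them also past the 0.5 limit) and 10 changed sign, all of Ndufaf7 or Sdhaf3. Ndufaf7 (0.03) was at -0.051 with library size scaling and -0.029 to 0.11 with 1 library left out in edgeR, and Sdhaf3 (0.02) was at -0.062 and -0.013 to 0.075. With DESeq2, Ndufaf7 was at -0.027 without NTG 2 and -0.0092 without TG 3, and Sdhaf3 was at -0.0059 without TG 3. The cause was not tested.

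The correlations of deviations were 0.08, 0.17 and -0.25 for hearts of equal replicate number (1, 2 and 3). For unequal numbers they ran from -0.25 to 0.17, so they cannot decide whether replicate numbers pair the hearts. The fit with the replicate block gave 17 members (38.6%) higher at an unadjusted p under 0.05, against 11.2% of all genes. Among the 44 tested members, Cox20 and Cox17 had the largest standard errors of the log2 fold change, 0.51 and 0.43. Their counts were 5 to 17 and 18 to 65 per heart, and the part of counting error was not tested.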
